A study of Mus musculus with 12 samples.

Results

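The kinesins are motor proteins that walk along microtubules, and their genes were followed in RNA sequencing libraries from the mouse hypothalamus. Members were the genes of the deposited table with 1 of a set of symbols. These were Kif with a number and at most 1 letter, Kifc with 1 digit, the kinesin-2 adaptor Kifap3, the kinesin light chains Klc1 to Klc4 and Stard9, a kinesin-3 relative. Kinesin genes with other symbols, such as Kifc5b, were left out. There were 48 such genes among 32494 in the table. Of the 48, 36 had a mean of at least 1 CPM (read counts relative to library size, as the authors scaled them) over the 12 libraries and entered the test, and 12 did not.

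All 12 mice were male, carried floxed Smc3 alleles, received tamoxifen and were sampled 5 weeks after it, and an age of 8 weeks is given without saying at which step. Every sample title, those of the cKO mice included, also holds the word control, without saying what it refers to. The 7 mice without the Camk2a-cre/ERT2 transgene form the WT group and the 5 with it the cKO group. That transgene drives a tamoxifen-activated recombinase from a promoter of forebrain excitatory neurons, so glia, ependyma and many other cells of the tissue are not its target. Smc3, a cohesin subunit and the floxed gene, went against the labels, at 81.6 ± 3.14 CPM (SD, n = 7) in WT and 131 ± 10.3 CPM (SD, n = 5) in the libraries labelled cKO, a ratio of 1.60. Every direction below therefore refers to the libraries labelled cKO, written as cKO for short.

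Depth was 17.1 to 24.01 megareads in 11 libraries and 68.7 megareads in WT 1. All 11 hypothalamic neuron markers examined were above 0, with summed levels that ranged widely, from 82.0 to 701 CPM in WT and from 188 to 768 CPM in cKO. Of 9 thalamic markers 3 fell in cKO and 0 rose, and their summed level was 694 to 1264 CPM in WT against 505 to 820 CPM in cKO. Of 3 oligodendrocyte precursor markers 2 rose, of 5 general neuron markers 1 rose, and of 11 hypothalamic markers 1 rose. The lists for cortical and striatal neurons, oligodendrocytes, astrocytes, microglia, vessels, motile cilia and dividing cells had 0 tested genes past the threshold by limma, edgeR or DESeq2 and 1 (in microglia) at an unadjusted limma p-value under 0.05, and 0 markers of any list were at 0 in all libraries. For dividing cells only 1 of the 7 markers, Birc5, reached the CPM minimum and was tested, so a shift in that list was hardly tested. Of the 10 cortical and striatal markers 9 were tested. The part of these shifts in the kinesin results was not tested beyond a fit with the thalamic score as a covariate. In such tissue samples fewer cells of a type and less RNA per cell cannot be told apart.

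A kinesin heavy chain carries a motor domain that burns ATP to step along a microtubule, usually toward the plus end, and a tail that binds cargo directly or through light chains and adaptors. In neurons, where axons and dendrites are long, kinesin-1, kinesin-2 and kinesin-3 motors carry vesicles, mitochondria and RNA granules away from the cell body. Other families slide or shorten microtubules in the spindle of dividing cells, or build and regulate cilia.

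The stretches before the annotated starts of 4 of the 7 members that differed between groups (those with the groups fully apart that have an entry, and Kif17) are shown, since cohesin is known to collect at sites of CTCF, a DNA-binding protein that anchors chromatin loops. RefSeq's promoter table (GRCm38.p6) matched 37 of the 48 members, with 41 windows. In each window the 250 bases before the start were searched on both strands for the CTCF core consensus, the X-box of the RFX factors of ciliated cells, with 0 to 3 bases between its arms, and the cyclic AMP response element, or CRE (TGACGTCA). Each line holds the 150 bases just before the start, 5′ to 3′ on the gene's strand, with matches in capitals. No match overlaps another in these lines.

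Stard9, chr2:120628971-120629120, plus strand: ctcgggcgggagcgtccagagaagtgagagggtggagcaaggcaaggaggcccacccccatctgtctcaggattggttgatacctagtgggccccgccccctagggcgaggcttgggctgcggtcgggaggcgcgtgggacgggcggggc

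Kif17, chr4:138262101-138262250, plus strand: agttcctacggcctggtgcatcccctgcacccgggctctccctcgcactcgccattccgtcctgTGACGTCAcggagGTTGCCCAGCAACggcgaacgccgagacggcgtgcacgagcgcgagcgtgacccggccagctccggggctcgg

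Kif5c, chr2:49619136-49619285, plus strand: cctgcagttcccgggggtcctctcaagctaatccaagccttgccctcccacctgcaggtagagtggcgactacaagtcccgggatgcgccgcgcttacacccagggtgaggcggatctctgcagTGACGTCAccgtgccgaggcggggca

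Kifap3, chr1:163779433-163779582, plus strand: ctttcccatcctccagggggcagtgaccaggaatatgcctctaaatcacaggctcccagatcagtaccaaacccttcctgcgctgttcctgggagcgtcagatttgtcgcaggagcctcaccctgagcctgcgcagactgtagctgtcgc

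The CRE stood in 3 member windows (7.32%), those of Kif17, Kif5c and Klc1, against 1.55% of all 32851 windows. In Kif5c it began 26 bases before the start and in Kif17 86 bases before it. The X-box stood in 4 member windows (9.76%), those of Kif17, Kif9, Kif18a and Klc4, against 1.29% of all windows, and in Kif17 it began 73 bases before the start. The CTCF core stood in the 2 overlapping windows of Kif1b (4.88%) against 0.508% of all windows, and in none of the windows of members that differed. Both Kif1b matches are the same site, seen from different starts, so that share counts the site more than once. The windows of Stard9, Kifap3, Kif3c and Kif21a held none of these letters. A looser CTCF core, tried earlier, had matched Kif17 and Kifap3. The absence of a CTCF match in members that differed therefore depends on the letters chosen. Kif17 is shown although its groups overlapped, while Kif3c and Kif21a, whose groups overlapped too, have no line above. The windows of Kif3c and Kif21a held no match, so matches are commoner in the lines shown than in all windows of members that differed. The lines shown are therefore not a full picture of the members that differed. Member windows were richer in G and C than the rest, with a median of 64.4% against 52.4% over all windows. A match is a description of letters only, and binding was not measured.

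Levels were first compared between members, as CPM per kilobase of the longest GENCODE M21 transcript. The order depends on the length chosen. All annotated exon bases together were 4070 for Klc1, against 2504 in its longest transcript, and 22053 against 15399 for Stard9. The highest WT levels per kilobase were those of Kif5a (312), a neuronal kinesin-1 heavy chain, and Klc1 (307), a light chain that links kinesin-1 to cargo, and the ranges of these neighbours over the 7 WT mice overlapped. Kif1a, the carrier of synaptic vesicle precursors, followed at 215, and its range overlapped neither neighbour. Kif1b (99.96), a carrier of mitochondria and vesicle precursors, Kif3a (98.7), Kif5c (97.9), the minus-end directed motor Kifc2 (95.6), Klc2 (83.5) and Kifap3 (77.3) formed a run in which each overlapped the next. The 6 highest members held 66.1% to 67.8% of the summed kinesin level per kilobase in WT and 66.6% to 69.2% in cKO. Stard9, with a transcript of 15399 bases, was 23rd in this order at 2.99 per kilobase.

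**Figure D1:**
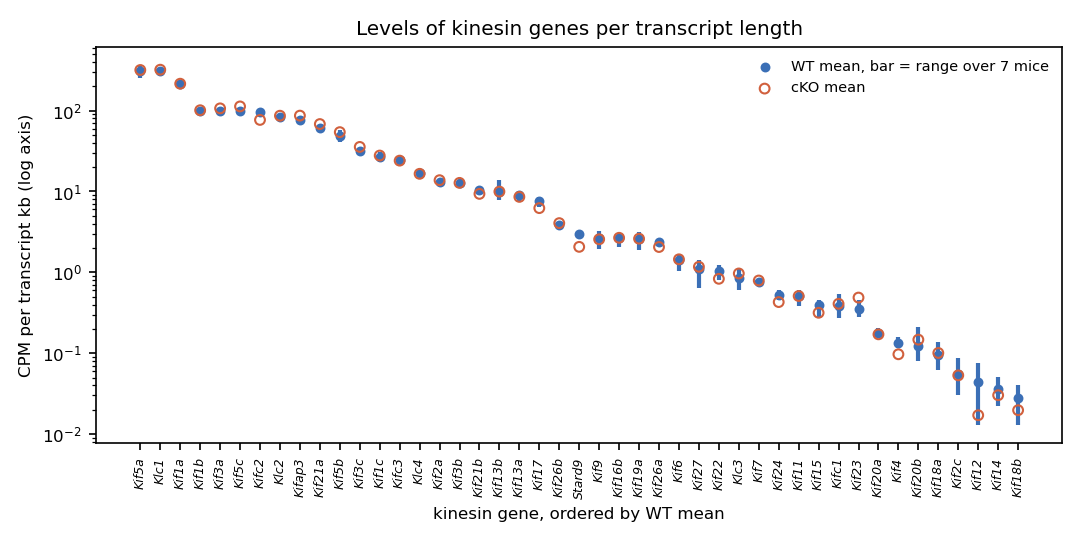
Mean level of each kinesin gene in CPM per transcript kilobase (log axis), with WT means as filled points, the range over the 7 WT mice as bars and cKO means as open circles; genes with a WT library at 0 or without a length are left out. Levels run from 312 for Kif5a to under 0.1 for kinesins of dividing cells, and the groups lie close together for most genes.

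Which kinesins differed between the groups was asked with limma on log2(CPM + 1) over all 15359 tested genes, with Benjamini-Hochberg adjustment over all of them and a threshold of 0.05. Of the 36 tested members 7 were past it, 4 higher and 3 lower in cKO. That is 19.4%, where over all tested genes 14.1% were past it, so the share of kinesins was near the background. By direction the background was 6.54% for rises and 7.6% for falls. Over all genes 1004 rose and 1168 fell, and after median centring of each library 1377 rose and 1054 fell. The median log2 fold change of the 36 was 0.02, against 0.01 over all tested genes. Kif5c, Kif3c, Kifap3 and Kif21a rose, and Stard9, Kifc2 and Kif17 fell. The authors' deposited table has 6 of the 48 members at a false discovery rate (FDR) under 0.05, against 4.94% of its 32494 genes. These 6 are the limma set without Kif21a, in the same directions. That background is unlike the members, as only 15359 of the 32494 genes reached the CPM minimum, against 36 of the 48 members.

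**Figure D2:**
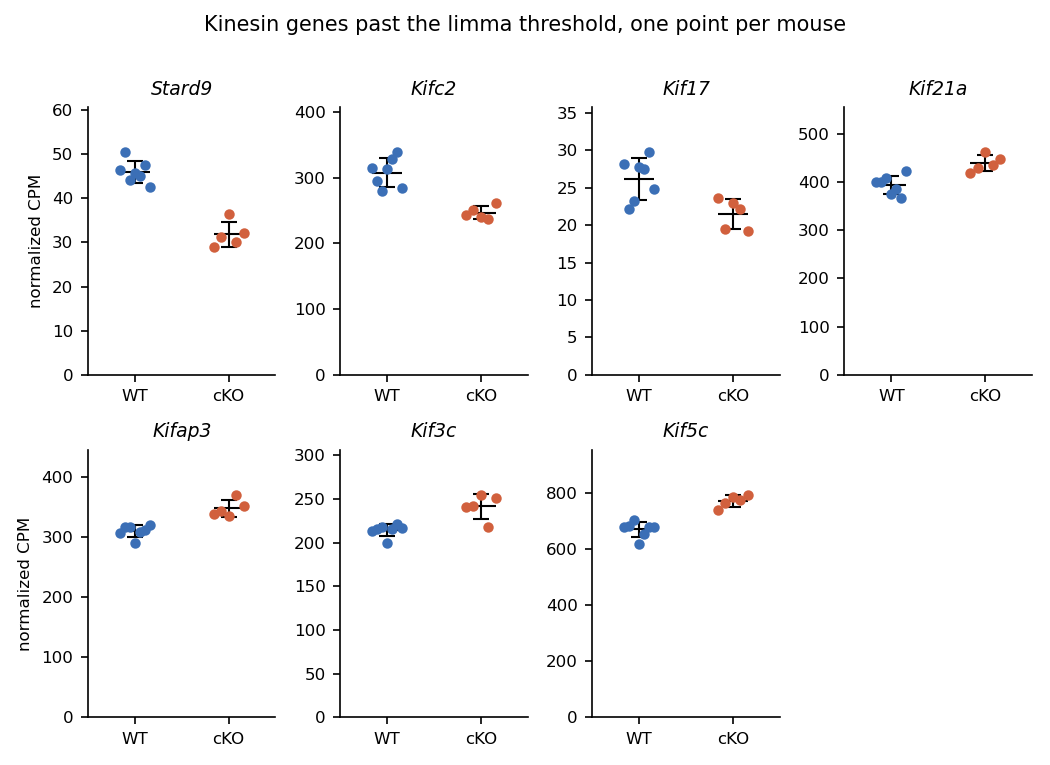
Normalized CPM of the 7 kinesin genes past the limma threshold, one point per mouse (7 WT, 5 cKO), with the mean and SD as bars; each vertical axis starts at 0. The groups are fully apart for Stard9, Kifc2, Kifap3 and Kif5c and touch or overlap for Kif17, Kif21a and Kif3c.

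Stard9 encodes a very long kinesin-3 relative with a lipid-binding START domain, described at centrosomes and lysosomes. In WT it was at 42.5 CPM in the lowest mouse, 45.7 in the median and 50.5 in the highest. In cKO it was at 29.0 (cKO 8), 31.3 (cKO 9), 36.4 (cKO 12), 30.1 (cKO 13) and 32.2 CPM (cKO 14). Every cKO mouse was below every WT mouse. The means were 46.0 ± 2.55 (SD, n = 7) and 31.8 ± 2.84 CPM (SD, n = 5), a ratio of 0.692, and the log2 change in limma was -0.52 (SE 0.06, with adjusted p = 0.000576), which ranked 8 among all tested genes by p. In the authors' deposited table it was -0.53, with an FDR of 7.87e-10.

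Of the annotated Stard9 exon bases 10.01% lie over exons of Cdan1 on the opposite strand, and the library kit named in the labels does not mark strand, so reads of those bases cannot be told apart. Cdan1 was itself at 33.7 ± 2.60 CPM (SD, n = 7) in WT and 27.0 ± 0.516 CPM (SD, n = 5) in cKO, a log2 change in limma of -0.30 (SE 0.05, with adjusted p = 0.00478).

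The other kinesin-3 genes gave a different picture from Stard9. Of the 6 other tested members (Kif1a, Kif1b, Kif1c, Kif13a, Kif13b and Kif16b) 0 were past the threshold by limma, edgeR or DESeq2, and 0 had an unadjusted limma p-value under 0.05. Kif1a was at 1763 ± 69.1 CPM (SD, n = 7) in WT and 1764 ± 143 CPM (SD, n = 5) in cKO, and Kif1b at 1023 ± 69.7 and 1034 ± 97.7 CPM. The log2 changes in limma were 0.00 (SE 0.06) for Kif1a and 0.01 (SE 0.07) for Kif1b. Kif14, the remaining member, was under the CPM minimum, at 4 to 24 reads per library. The difference between Stard9 and its relatives was not tested.

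Kinesin-1 is the classical axonal motor, a pair of heavy chains (Kif5a, Kif5b or Kif5c) with a pair of light chains. Only Kif5c was past the limma threshold among the 7 tested members. In WT it was at 620.1 CPM in the lowest mouse, 678 in the median and 706 in the highest. In cKO it was at 739 (cKO 8), 766 (cKO 9), 785 (cKO 12), 776 (cKO 13) and 795 CPM (cKO 14). Every cKO mouse was above every WT mouse. The log2 change in limma was 0.20 (SE 0.04, with adjusted p = 0.00756), a ratio of 1.15.

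Its paralogs varied more from mouse to mouse within both groups. Kif5a had a coefficient of variation (SD as a percent of the mean) of 14.6% in WT and 18.1% in cKO, against 4.01% and 2.78% for Kif5c. Kif5a ran from 1589 to 2306 CPM in WT and from 1565 to 2418 CPM in cKO, and its log2 change in limma was 0.02 (SE 0.12, with adjusted p = 0.936). Kif5b, the heavy chain of most cell types, was at 296 ± 44.1 CPM (SD, n = 7) and 327 ± 30.3 CPM (SD, n = 5), with a limma adjusted p-value of 0.324.

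The light chains did not pass. Klc1 was at 769.6 ± 14.5 CPM (SD, n = 7) in WT and 802 ± 21.8 CPM (SD, n = 5) in cKO, a log2 change in limma of 0.06 (SE 0.03, with adjusted p = 0.246). Klc2, Klc3 and Klc4 had limma adjusted p-values of 0.585, 0.547 and 0.793.

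Kinesin-2 is the motor of ciliary transport and of several axonal cargoes. Kif3a pairs with Kif3b or Kif3c, and Kifap3 joins the Kif3a and Kif3b pair to its cargo, while Kif17 forms a pair with itself and carries NMDA receptor vesicles into dendrites. All 5 members were tested, and 2 rose and 1 fell.

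Kifap3 was at 290.3 CPM in the lowest WT mouse, 311 in the median and 320.1 in the highest. In cKO it was at 337 (cKO 8), 343 (cKO 9), 335 (cKO 12), 371 (cKO 13) and 352 CPM (cKO 14). The groups did not overlap, and the log2 change in limma was 0.16 (SE 0.04, with adjusted p = 0.0133), a ratio of 1.12.

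Kif3c was at 199.5 CPM in the lowest WT mouse (WT 6), 216 in the median and 222 in the highest. In cKO it was at 241 (cKO 8), 242 (cKO 9), 255 (cKO 12), 218 (cKO 13) and 251 CPM (cKO 14). Only cKO 13 lay within the WT range, and the log2 change in limma was 0.17 (SE 0.04, with adjusted p = 0.0195). Opposite-strand exons of 1110002L01Rik cover 35.3% of its exon bases, and that gene was at 2.91 ± 0.436 CPM (SD, n = 7) and 2.60 ± 0.296 CPM (SD, n = 5). The part of reads over the shared bases in the Kif3c value was not tested. With the thalamic score as a covariate the log2 change in limma of Kif3c was 0.16, with an adjusted p-value of 0.087.

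Kif3a and Kif3b did not pass. Kif3a was at 296 to 319 CPM in WT and at 340.3 (cKO 8), 321 (cKO 9), 339 (cKO 12), 358 (cKO 13) and 326 CPM (cKO 14) in cKO, so that its groups did not overlap. Its log2 change in limma was 0.11 (SE 0.04, with adjusted p = 0.0541), just over the threshold, and it was past the threshold in 3 of 9 alternatives, after median centring (adjusted p-value 0.0258), with a minimum of 5 CPM (0.0488) and by DESeq2 (0.00927). Kif3b was at 71.6 ± 4.89 CPM (SD, n = 7) and 72.0 ± 4.01 CPM (SD, n = 5), with a log2 change in limma of 0.01 (SE 0.05). The difference between the subunits was not tested.

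Kif17 fell. It was at 22.1 CPM in the lowest WT mouse, 27.5 in the median and 29.8 in the highest, and in cKO at 23.6 (cKO 8), 19.5 (cKO 9), 23.0 (cKO 12), 22.2 (cKO 13) and 19.2 CPM (cKO 14). The 3 highest cKO mice lay within the WT range. The log2 change in limma was -0.27 (SE 0.08, with adjusted p = 0.037), a ratio of 0.821. Sh2d5, whose exons cover 1.62% of the Kif17 exon bases on the same strand, also fell, with a log2 change in limma of -0.24 (SE 0.06, with adjusted p = 0.0178), and the part of shared reads was not tested. The Kif17 call was lost without WT 1, WT 6, WT 7, WT 11, cKO 9, cKO 13 or cKO 14, with adjusted p-values up to 0.0919, and also with the thalamic score as a covariate (0.0933), after the GC and length correction of transcripts (0.102) and over all genes above 0 (0.0676).

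**Figure D3:**
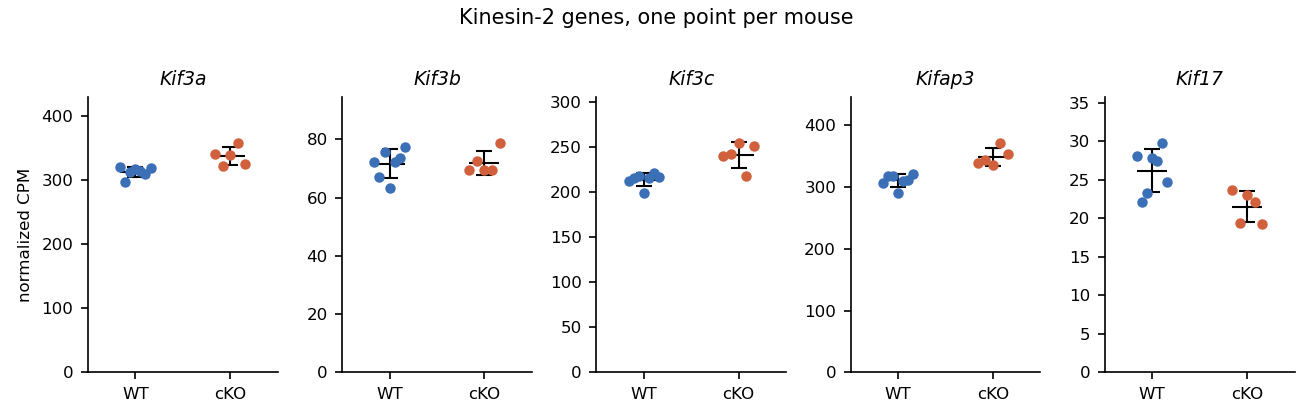
Normalized CPM of the 5 kinesin-2 genes, one point per mouse (7 WT, 5 cKO), with the mean and SD as bars; each vertical axis starts at 0. Kif3a, Kif3c and Kifap3 lie higher in cKO by ratios of 1.08, 1.13 and 1.12 (Kif3a not past the limma threshold), Kif3b lies level and Kif17 lower.

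Kinesin-4 motors stay at microtubule ends and regulate their growth. Kif21a was at 367 CPM in the lowest WT mouse, 399 in the median and 422 in the highest, and in cKO at 419.7 (cKO 8), 429.8 (cKO 9), 462 (cKO 12), 435 (cKO 13) and 448 CPM (cKO 14). Only cKO 8 lay within the WT range, under the highest WT mouse. The log2 change in limma was 0.16 (SE 0.04, with adjusted p = 0.0265), a ratio of 1.11. The call was lost without WT 1, cKO 12 or cKO 14, with adjusted p-values up to 0.0593, with the thalamic score as a covariate (0.199), after quantile normalization (0.0525) and over all genes above 0 (0.0577). Its paralog Kif21b was at 95.7 ± 6.63 CPM (SD, n = 7) and 86.4 ± 8.39 CPM (SD, n = 5), with a log2 change in limma of -0.15 (SE 0.06, with adjusted p = 0.13). Kif7, which acts in Hedgehog signalling at the cilium, and Kif27 did not pass, and Kif4, a chromosome-bound motor, was under the CPM minimum.

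Kinesin-14 motors have the motor domain at the other end of the protein and walk toward the minus end. Kifc2, a member found mainly in neurons, was at 279.5 CPM in the lowest WT mouse, 313 in the median and 339 in the highest. In cKO it was at 243 (cKO 8), 251 (cKO 9), 241 (cKO 12), 237 (cKO 13) and 262 CPM (cKO 14). Every cKO mouse was below every WT mouse, and the log2 change in limma was -0.31 (SE 0.05, with adjusted p = 0.00383), a ratio of 0.802. Exons of Cyhr1 on the opposite strand cover 4.15% of its exon bases, and Cyhr1 had a log2 change in limma of 0.15 (SE 0.04, with adjusted p = 0.026), the other direction.

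Kifc3 was at 82.7 ± 4.22 CPM (SD, n = 7) and 81.4 ± 3.97 CPM (SD, n = 5), with a limma adjusted p-value of 0.781. Kifc1, a spindle motor, was under the CPM minimum, at 14 to 67 reads, and is uncertain where reads were shared with its near-identical copy Kifc5b. Kifc5b, which is not among the members, was at 2.09 ± 0.163 CPM (SD, n = 7) and 1.63 ± 0.289 CPM (SD, n = 5). Its log2 change in limma was -0.24 (SE 0.08, with adjusted p = 0.0675).

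In 5 of the 36 tested members the group ranges did not overlap, 3 higher (Kif5c, Kifap3 and Kif3a) and 2 lower (Stard9 and Kifc2), where 6.73% of all tested genes had ranges apart. For these 5 members the two-sided exact permutation p-value over the 792 splits into 7 and 5 was 0.00126, the smallest the design allows. Adjusted over the 20 members tested this way it was 0.00505. This p-value follows largely from the lack of overlap and is no separate support.

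**Figure D4:**
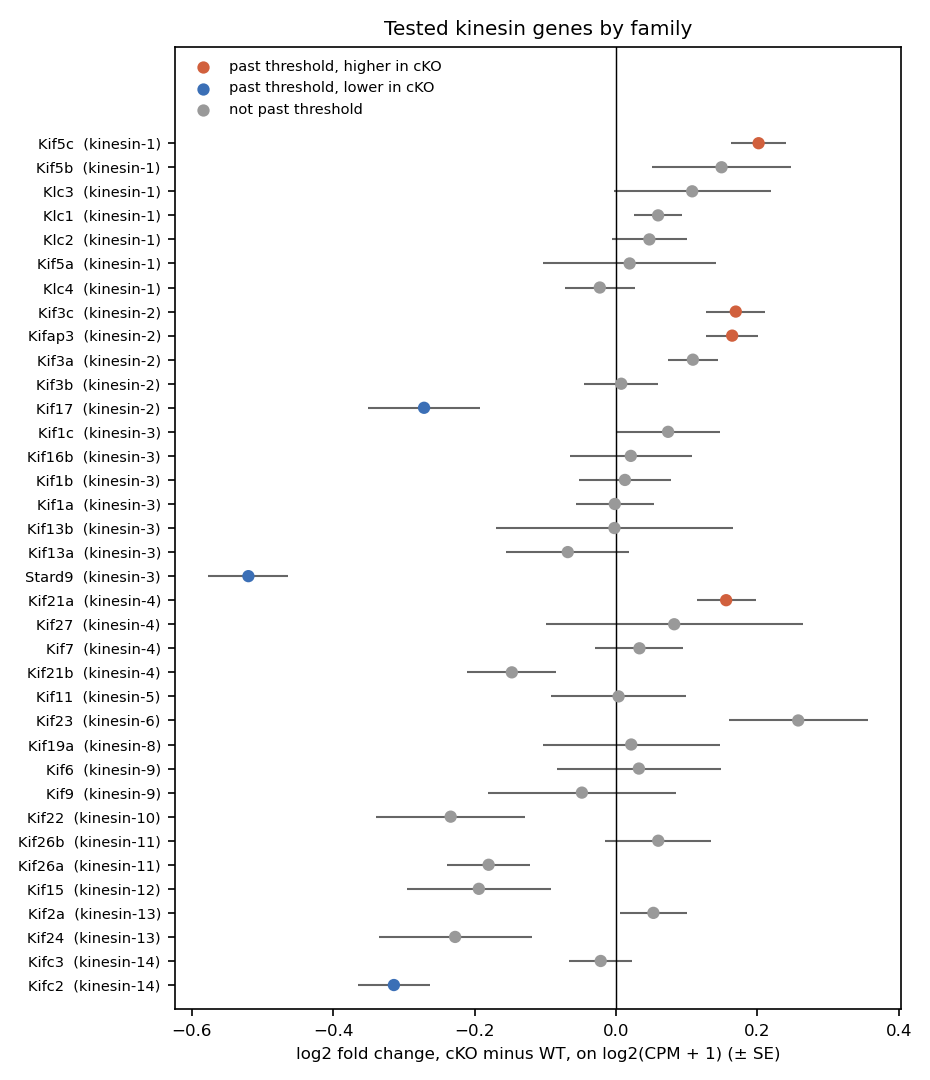
Limma log2 fold change (cKO minus WT, on the log2(CPM + 1) scale, bars are SE) of the 36 tested kinesin genes, grouped by family. The 7 genes past the threshold are coloured by direction, from -0.52 for Stard9 to 0.20 for Kif5c; the largest positive value, 0.26 for Kif23, did not pass.

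Kinesins of the spindle and of cell division were low, as were the 7 dividing-cell markers, whose summed level was 2.73 to 4.46 CPM in WT and 3.20 to 5.12 CPM in cKO. Kif11, which pushes spindle poles apart, was at 2.44 ± 0.345 CPM (SD, n = 7) and 2.46 ± 0.400 CPM (SD, n = 5), with a log2 change in limma of 0.00 (SE 0.10). Kif23, a motor of cytokinesis, was at 1.21 ± 0.195 and 1.66 ± 0.350 CPM, on 22 to 83 reads per library, with a log2 change in limma of 0.26 (SE 0.10, with adjusted p = 0.0937). It passed under quantile normalization (adjusted p of 0.0338) and without cKO 13 (0.0458).

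The other low motors did not pass either. Kif22, a chromosome-bound motor, was at 3.69 ± 0.607 CPM (SD, n = 7) and 2.98 ± 0.468 CPM (SD, n = 5), with a log2 change in limma of -0.23 (SE 0.11, with adjusted p = 0.149). With the thalamic score as a covariate that value was -0.43 and past the threshold (adjusted p-value 0.0374). Kif15, a spindle motor, was at 1.90 ± 0.332 and 1.54 ± 0.287 CPM, with a log2 change in limma of -0.19 (SE 0.10, with adjusted p = 0.211). Kif24 had a log2 change in limma of -0.23 (SE 0.11, with adjusted p = 0.169).

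The remaining 12 members, under the CPM minimum, were Kif2b, Kif2c, Kif4, Kif12, Kif14, Kif18a, Kif18b, Kif19b, Kif20a, Kif20b, Kif28 and Kifc1. Kif2b had 1 read in WT 6 and 0 in the other libraries, where a floor of 3 reads is 0.0436 to 0.178 CPM. Kif12, Kif18b, Kif19b and Kif28 were also at 0 in 1 to 3 libraries. When limma was run over all genes above 0, which took in all 48 members, 5 members passed and all 5 were among the 7 above, so none of these 12 passed. In the authors' deposited table the lowest FDR among the 12 was 0.348, for Kif12.

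Kif2a shortens microtubule ends and prunes axon branches, and Kif26b is an atypical kinesin. Kif2a was at 70.3 ± 2.24 CPM (SD, n = 7) and 73.1 ± 5.68 CPM (SD, n = 5), with a limma adjusted p-value of 0.482. Kif26b was at 53.2 ± 3.09 and 55.8 ± 7.22 CPM, with a limma adjusted p-value of 0.631, and at a log2 fold change of 0.21 past the threshold after the GC and length correction (0.0293). Its relative Kif26a was at 16.2 ± 0.806 and 14.2 ± 1.28 CPM, with a log2 change in limma of -0.18 (SE 0.06, with adjusted p = 0.0557), and 1 of these 2 kinesin-11 genes passed by edgeR and by DESeq2.

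Several members varied among the mice of each group far more than between the groups, and this spread was set beside glial and ependymal markers. The score of a marker list is the mean of log2(CPM + 1) over its genes. The motile cilia score (Foxj1, Ccdc153 and 5 other genes of ependyma) was 2.87 to 3.89 in WT and 2.91 to 4.05 in cKO, and the oligodendrocyte score (Mbp and 5 other myelin-cell genes) 8.30 to 9.48 and 8.50 to 9.45. These scores moved in opposite directions across the 12 mice, with a Pearson r of -0.82 (permutation p-value 0.00069) and a Spearman rho of -0.90 (permutation p-value 0.00011). Neither score differed past 0.05 between the groups (two-sided exact permutation p-values 0.787 for oligodendrocytes and 0.985 for cilia). The hypothalamic neuron score moved with them. WT 4, WT 5, cKO 12 and cKO 13, the mice with the highest oligodendrocyte scores, had the lowest hypothalamic neuron scores (2.92, 2.69, 3.49 and 3.90). The next lowest was 4.10, in WT 11. Relations of members to that score and to other marker scores were not computed, and the part of tissue make-up was not tested. Relations to the oligodendrocyte and cilia scores were computed for all 15359 tested genes and adjusted over all genes for each score, and gene and score come from the same libraries.

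Past an adjusted permutation p-value of 0.05 by Pearson's r, 4 of the 36 members rose with the motile cilia score, where 4.17% of all tested genes were related to it in either direction. Kif27, a relative of the Hedgehog kinesin Kif7 linked to motile cilia, followed it most closely, with r = 0.96 (permutation p-value 1e-05, the smallest that 100000 permutations give, adjusted 0.00295) and rho = 0.97 (permutation p-value 1e-05, adjusted 0.00404). It ran from 3.25 CPM in WT 4 to 8.60 CPM in cKO 8, the mice with the lowest and the highest cilia score of all 12. Without those 2 mice r was 0.93, and within WT alone 0.96. Against the oligodendrocyte score Kif27 had r = -0.76 (permutation p-value 0.00406, adjusted 0.0514) and rho = -0.85 (permutation p-value 0.00077, adjusted 0.0282). As the scores ran in opposite directions, relations to either score were not separated from inverse relations to the other. Nor were they separated from relations to the hypothalamic neuron score.

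Kif19a, which limits the length of motile cilia, had r = 0.82 (permutation p-value 0.00125, adjusted 0.0392) and rho = 0.78 (permutation p-value 0.00421, adjusted 0.0684). Kif9, a motor of the ciliary axoneme, had r = 0.80 (permutation p-value 0.00181, adjusted 0.0463) and rho = 0.78 (permutation p-value 0.00391, adjusted 0.0655). Without WT 4 and cKO 8 r was 0.67 for Kif19a and 0.69 for Kif9. Their rank correlations missed the adjusted threshold, as did Kif6, also of motile cilia, with r = 0.69 (permutation p-value 0.0127, adjusted 0.125) and rho = 0.74 (permutation p-value 0.00762, adjusted 0.0954), and r = 0.68 without those 2 mice.

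The fourth member was Kif11, known for its work in the spindle. It had r = 0.86 (permutation p-value 0.00032, adjusted 0.0197) and rho = 0.83 (permutation p-value 0.00119, adjusted 0.036) with the cilia score, 0.75 without WT 4 and cKO 8 and 0.96 within WT. Its values ran from 1.87 to 2.90 CPM and rested on 38 to 168 reads per library.

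With the oligodendrocyte score 3 of the 36 members rose past the same threshold, or 8.33%, near the 7.73% of all tested genes. Kif13b, which moves vesicles and polarity proteins, ran from 69.7 CPM in WT 6 to 122 CPM in WT 5 and from 59.5 CPM in cKO 8 to 113 CPM in cKO 12. Its r was 0.94 (permutation p-value 6e-05, adjusted 0.0049) and its rho 0.93 (permutation p-value 1e-05, adjusted 0.0032), with 0.92 without WT 5 and cKO 13 and 0.98 within WT. Its paralog Kif13a had r = 0.85 (permutation p-value 0.00025, adjusted 0.0107) and rho = 0.85 (permutation p-value 0.00076, adjusted 0.0279), with 0.85 without those 2 mice. Against the cilia score Kif13b had r = -0.78 (permutation p-value 0.0028, adjusted 0.0582) and Kif13a r = -0.77 (permutation p-value 0.00325, adjusted 0.0628), neither past the threshold.

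Kif1c, a kinesin-3 motor of many cell types, had r = 0.83 (permutation p-value 0.00103, adjusted 0.0237), 0.77 without WT 5 and cKO 13, while its rho of 0.73 (permutation p-value 0.00955, adjusted 0.1) missed the threshold. For cKO alone, with 5 mice, no correlation is given.

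**Figure D5:**
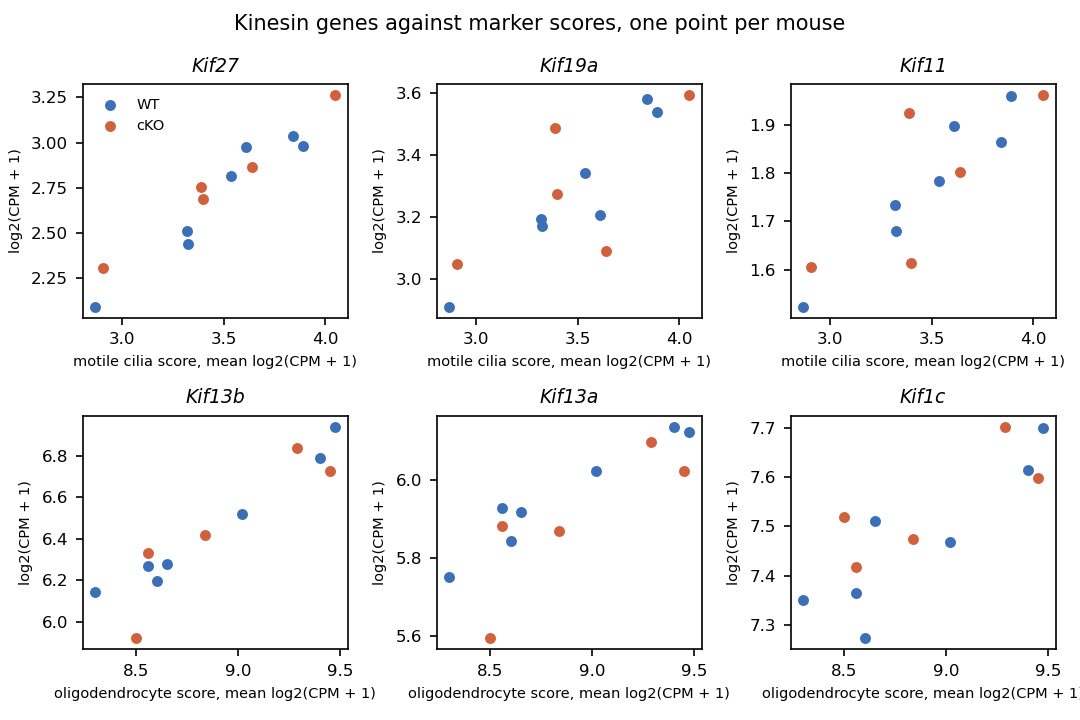
Log2(CPM + 1) of 6 kinesin genes (vertical) against a marker score, the mean log2(CPM + 1) of a marker list (horizontal), one point per mouse (7 WT, 5 cKO); the upper row uses the motile cilia score and the lower row the oligodendrocyte score. WT and cKO mice lie along the same rising band, tightest for Kif27 (r = 0.96) and Kif13b (r = 0.94).

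Genes that work beside the kinesins formed a list of 71, and 70 of these had enough reads to test. The list and its parts were chosen with earlier results of these data known, so their shares are descriptions and no independent support. By limma 10 rose and 1 fell, or 15.7% past the threshold against 14.1% of all tested genes. The median log2 fold change was 0.05, against 0.01 over all tested genes. Of the 24 tested cargo adaptors and regulators 1 rose and 1 fell. The one that fell was Clstn2, a calsyntenin (a family that couples kinesin-1 light chains to vesicles), at 187 ± 18.8 CPM (SD, n = 7) in WT against 130.2 ± 25.6 CPM (SD, n = 5) in cKO, a log2 change in limma of -0.53 (SE 0.11, with adjusted p = 0.00978). Arl8b, a small GTPase that recruits kinesins to lysosomes, rose with a log2 change in limma of 0.15 (SE 0.04, with adjusted p = 0.0151), although its adjusted p was 0.0554 once the thalamic score was a covariate.

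Dynein carries cargo the other way, and 3 of its 10 listed subunits rose, Dynll1, Dync1i1 and Dynlrb1, with log2 changes in limma of 0.22, 0.17 and 0.17. That is 3 of 10 where 6.54% of all tested genes rose, and after quantile normalization 4 were past the threshold, 1 of them lower. Dync1i1 did not pass beside the thalamic score (adjusted p 0.0901), nor Dynlrb1 without WT 1, cKO 9 or cKO 13 (up to 0.0663). The heavy chain Dync1h1 was at 1105 CPM in WT and 1037 CPM in cKO, with a limma adjusted p-value of 0.266. Of 17 dynactin and dynein regulator genes 0 passed by limma or edgeR and 1 by DESeq2, and 3 had an unadjusted limma p-value under 0.05.

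Of 19 microtubule proteins 6 rose and 0 fell by limma, or 31.6% against 6.54% of all tested genes for rises, and 11 had an unadjusted limma p-value under 0.05. This list was chosen with earlier results of these data known, so its share is a description only. By edgeR 5 were past the threshold, 0 of them lower, and by DESeq2 8, 2 of them lower. Dcx and Stmn1, microtubule regulators of growing neurons, had log2 changes in limma of -0.23 each and lay just over the threshold (adjusted p of 0.0546 and 0.0543). Tubb2b, a beta-tubulin, rose most, with 102 ± 3.37 CPM (SD, n = 7) in WT and 142 ± 19.4 CPM (SD, n = 5) in cKO, a log2 change in limma of 0.46 (SE 0.07, with adjusted p = 0.00277). Map2, a dendritic microtubule protein, went from 1267 ± 65.8 to 1507 ± 128 CPM, with a log2 change in limma of 0.25 (SE 0.06, with adjusted p = 0.0162). Its call was lost under quantile normalization (0.16, adjusted p of 0.15), with the thalamic score (0.108) or over all genes above 0 (0.0518). Tuba1b (0.20), Stmn2 (0.20), Tubb4b (0.16) and Tubb2a (0.15) were the other 4, with limma adjusted p-values of 0.0191, 0.0224, 0.0149 and 0.038. Stmn2, also one of the neuron markers above, was not past the threshold without WT 1 (0.0518) or after the GC and length correction (0.0527). Tubb2a was not past it without WT 1, WT 4, WT 5, WT 6, WT 15, cKO 8, cKO 9 or cKO 13 (up to 0.0831), nor by edgeR (0.0516), after quantile normalization (0.0857) or over all genes above 0 (0.082). Tubulin genes share long stretches of sequence, so the split of reads between them is uncertain.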

How the data were processed

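Hypothalamic mRNA libraries of 12 mice (7 WT, 5 cKO, grouped by sample title) were used. The authors deposited normalized CPM per gene and library, and also their own test results, as log2 fold changes, p-values and FDR values. STAR (2.7.9a), Subread and featureCounts are named in the submitters' processing notes, without roles, and the genome build, annotation and strand setting are not given in the sources used here. The deposited CPM were whole multiples of 1 step per library for 100% of values above 0 (within 0.01 reads), so read counts were recovered, and 0 columns were left unused. Each title was taken as 1 mouse, and p-values measure only the spread between these samples.

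The main test was limma (3.58.1, R 4.3.3), with lmFit and a trended eBayes, applied to log2(CPM + 1) of the 15359 genes whose mean was 1 CPM or more, with Benjamini-Hochberg adjusted p-values and a threshold of 0.05. Fold changes on that scale understate low genes. Alternatives were quantile normalization, median centring, a pseudocount of 0.1, a minimum of 5 CPM, all genes above 0, DESeq2 (1.42.0) or the quasi-likelihood test of edgeR (4.0.16) on the recovered reads, the thalamic marker score as a covariate, a spline correction (4 degrees of freedom) for GC content and length of GENCODE M21 transcripts (14515 genes, 94.5%), and leaving out each mouse. edgeR called 2097 genes and DESeq2 2747, against 2172 by limma. The model fits were tested on simulated data. Floors of 3 reads cover counting error only.

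Genes with full values were Stard9, members past the threshold, the 6 highest per transcript kilobase, for each other family its most abundant member, and partner genes past the threshold. Kif3b, Kif5b, Kif21b, Kif24, Kif26a, Kifc3, Kifc5b, Cdan1, Cyhr1, Sh2d5, Dcx, Stmn1, 1110002L01Rik, Dync1h1 and the members in the score relations were named after their values were seen. The members and lists were chosen with earlier results of these data known, and the score relations were added after the data were seen. Each exact permutation test was two-sided. The motif letters were changed to degenerate consensus forms after looser forms of the CTCF core and X-box had been tried, and a looser CTCF core had matched Kif17 and Kifap3.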

Additional observations from a re-analysis of the deposited data

Results flagged for a closer look

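Of 98 groups of values examined for a mouse far from the rest of its group (48 genes and the depth, in 2 groups each), 9 stood out, where chance gives about 1 in 20, or 4.9. WT 1 had 68.7 megareads, and the next WT library 24.01 megareads. Kif3c was at 199.5 CPM in WT 6, and the next WT mouse was at 213. Klc1 was at 737 CPM in WT 15, under 771 in the next. Kif5b was at 274 CPM in cKO 8, under 329 in the next cKO mouse. Kif15 was at 2.04 CPM in cKO 13, above 1.48 in the next. Kif20b was at 1.16 CPM in WT 6 (next 0.744), Kifc1 at 1.35 CPM in cKO 12 (next 0.950), Kif12 at 0.187 CPM in cKO 12 (next 0.0490) and Kif2b at 0.0448 CPM in WT 6, a single read, where the other WT libraries had 0.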

How the results depend on the processing

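The log2 changes of Stard9 (-0.57 to -0.39), Kifc2 (-0.34 to -0.25), Kif5c (0.15 to 0.23) and Kifap3 (0.13 to 0.20) kept their direction and stayed past the threshold in all 9 alternatives and in the 12 fits that each left out 1 mouse (adjusted p-values of at most 0.0337). Kif3c lost it in 1 of 9 alternatives, and Kif17 and Kif21a in 3 each. The smallest Stard9 change, -0.39, came from an alternative, while the fits short of 1 mouse gave -0.57 to -0.49.

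The number of kinesin genes past the threshold was 5 over all genes above 0, 9 with a minimum of 5 CPM or by DESeq2, and 5 to 8 in the fits short of 1 mouse. Over all genes it was 1013 beside the thalamic score and 1158 (without WT 1) to 2302 in the fits short of 1 mouse. For partner genes it was 20 under the GC and length correction, 17 of them higher, and 8 to 13 in the fits short of 1 mouse. The cause was not tested.

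Direction turned only in members not past the threshold. Kif1a was at 0.012 under median centring and 0.11 under the GC and length correction, and Kif1b at -0.034 under quantile normalization and -0.031 beside the thalamic score. Kif11 was at -0.00017 by DESeq2, -0.12 beside the thalamic score and -0.031 under the GC and length correction. Beside the thalamic score Kif19a was at -0.25 and Kif26b at -0.015. In the fits short of 1 mouse the ranges were -0.033 to 0.038 (Kif1a), -0.028 to 0.058 (Kif1b), -0.041 to 0.048 (Kif11), -0.052 to 0.085 (Kif19a), -0.054 to 0.10 (Kif5a) and -0.14 to 0.001 (Kif9). No paired analysis was possible because the groups share no mouse number. A minimum of 5 CPM left no value for Kif11, Kif15, Kif22 or Kif23. Low reads limit the division kinesins.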
